A study of Mus musculus with 24 samples.

Results

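The ribosome biogenesis and RNA polymerase I genes described here are 50 genes chosen by symbol, each matched through its mouse Ensembl identifier to a row of the gene count table. All 50 were found among the 54446 rows and all 50 passed the filter on low counts, with 15325 genes tested in all. Messenger RNA was sequenced from splenic CD4+ T cells of 6 mice, 3 labelled WT (C57BL/6 mice 1, 3 and 4) and 3 labelled Aim2-/- (mice 1, 2 and 4, on the same background, lacking the cytosolic DNA sensor Aim2 in all cells). By the numbers in the labels, each mouse gave unstimulated cells (0 h) and cells kept for 3, 6 and 24 h on anti-CD3 with anti-CD28. These antibodies trigger the antigen receptor complex and a co-stimulatory receptor. The 24 libraries form 8 groups of 3. The age of the mice was not given in the sources used here, and the cells were enriched by removing other cells with antibodies rather than sorted. Values are counts per 1e6 counts (CPM) scaled by library composition, differences are on the log2 scale, and a gene is called when its adjusted p from edgeR's quasi-likelihood test is under 0.05.

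Ribosomes are assembled in the nucleolus. RNA polymerase I transcribes one long precursor RNA, guided by initiation factors, and small nucleolar RNA (snoRNA) particles modify and cut it while it is still being made. Separate sets of factors then build the small subunit around the 18S RNA and the large subunit around the 28S and 5.8S RNAs before export to the cytoplasm. Resting T cells are small and make few ribosomes, and growth after activation is known to require many more. The 50 genes were divided by role into 7 genes of the polymerase and its factors, 10 of the snoRNA particles, 14 of the small subunit, 14 of the large subunit and 5 abundant nucleolar proteins that act at several steps.

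The libraries held between 19715161 and 21627018 counts. The lowest count of any of the 50 genes in any library was 49, in Wdr74, so none lay near the limit of detection. Aim2 itself lay at 21.5, 75.0 and 67.5 CPM in WT mice 1, 3 and 4 at 0 h and at 15.7, 20.1 and 19.0 CPM in Aim2-/- mice 1, 2 and 4. The libraries labelled WT mouse 1 therefore lay near the Aim2-/- level, against their label, and stayed there at 24 h with 5.57 CPM, against 34.0 and 38.7 CPM in the other WT mice. At 6 h Aim2 lay at 11.5 CPM in WT mouse 1 and 33.0 and 32.5 CPM in WT mice 3 and 4. In Aim2-/- mice it lay at 8.18 to 11.4 CPM at that time. Comparisons with WT are given with and without that mouse where it matters. All 8 CD4 T cell markers on the list used were present in every library, with summed levels of 4404 to 4798 CPM in WT and 4581 to 4764 CPM in Aim2-/- libraries at 6 h.

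Stimulation raised these genes in both genotypes. At rest they took 0.467% ± 0.00407 (SD, n = 3) of all counts in WT cells, and this share rose to 0.896% ± 0.141 at 3 h, 1.56% ± 0.0900 at 6 h and 2.25% ± 0.115 at 24 h. The 3 WT mice lay within 0.463% and 0.471% at rest, and every mouse had a higher share at each later time. In Aim2-/- cells the share went from 0.483% ± 0.00689 to 0.842% ± 0.138, 1.17% ± 0.229 and 1.99% ± 0.167. The mice of each genotype were closest at 0 h, and Aim2-/- mouse 1 lay below the other Aim2-/- mice at 3, 6 and 24 h. In these bulk samples, a larger share of responding cells and more RNA per cell cannot be told apart.

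**Figure D1:**
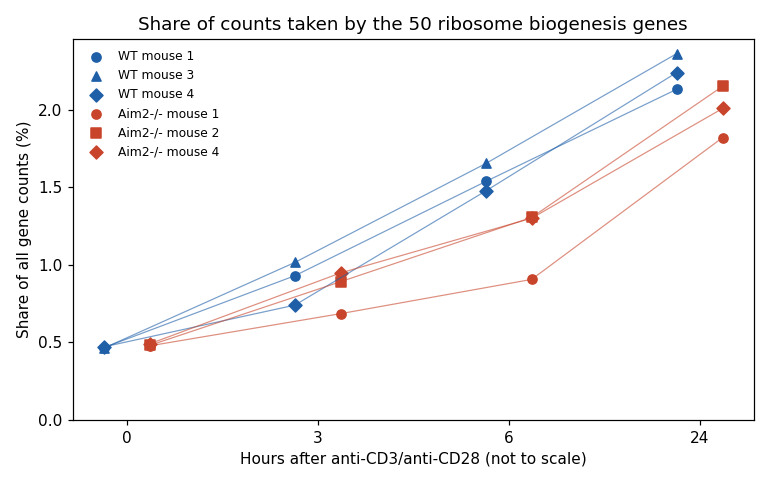
Share of all gene counts (percent, y axis) taken by the 50 genes in each of 24 libraries, against hours after stimulation (x axis, evenly spaced). Each line joins the libraries of 1 mouse, and all 6 lines rise from 0.463 to 0.491% at 0 h to between 1.82 and 2.36% at 24 h.

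In WT cells 41 of the 50 genes were called higher at 3 h, where 16.2% of all tested genes were called higher. At 6 h and at 24 h 50 of 50 were called higher, against 26.4% and 36.6% of all tested genes. None was called lower at these times, where 16.4%, 24.8% and 34.8% of all tested genes were. The median log2 change over the 50 genes was 0.83, 1.69 and 1.99 at 3, 6 and 24 h, and that over all tested genes was 0.02, 0.02 and -0.01. In Aim2-/- cells 42, 48 and 50 genes were called higher, against 16.1%, 28.5% and 36.8% of all tested genes, and none lower, against 14.6%, 22.7% and 33.5%. The medians were 0.75, 1.35 and 1.79. Of the 50 WT changes, 23, 36 and 21 lay among the top 10% of all tested genes at 3, 6 and 24 h. The genotypes share no libraries in these comparisons.

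**Figure D2:**
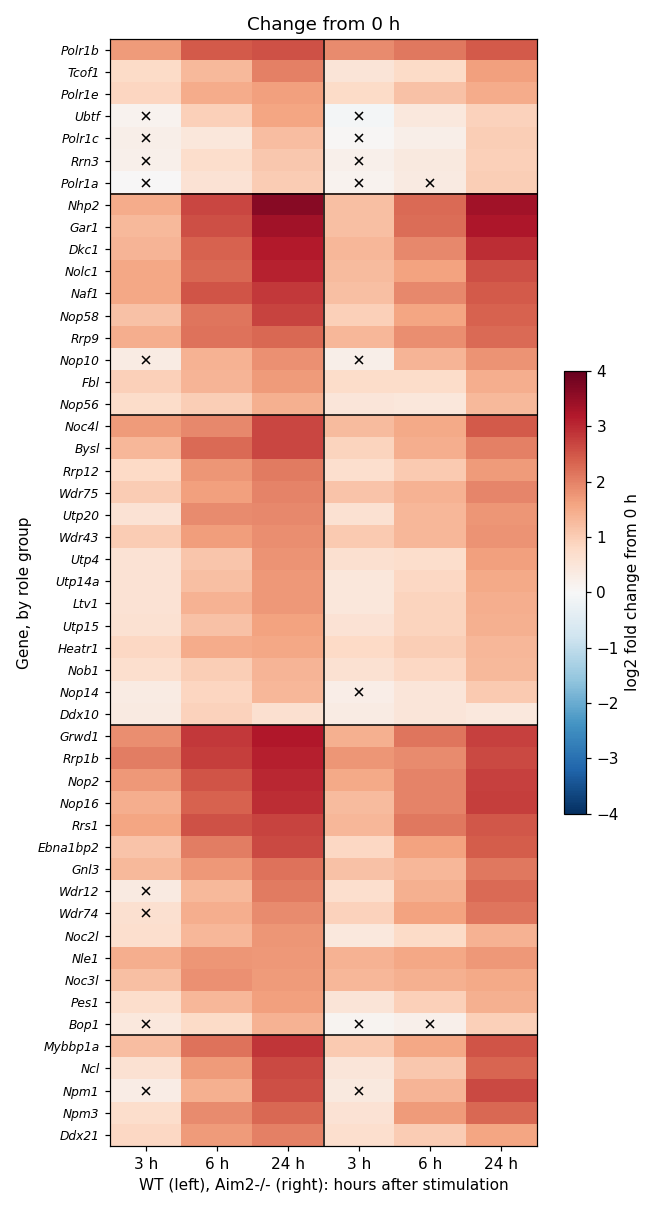
Log2 change from 0 h (colour, red higher) of each of the 50 genes (rows, grouped by role with lines between groups, largest WT change at 24 h first) at 3, 6 and 24 h in WT (left) and Aim2-/- cells (right). Crosses mark the changes that were not called, which are 9 in WT at 3 h, and 8 and 2 in Aim2-/- cells at 3 and 6 h.

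Of the 7 genes of the polymerase and its factors 3 were called higher at 3 h in WT cells, with a group median log2 change of 0.22, and at 6 and 24 h 7 of 7 were called, with medians of 0.96 and 1.57. Polr1b, Polr1e and Tcof1 were the 3 called at 3 h. Polr1b, the second largest subunit of the enzyme, lay at 37.4, 42.6 and 41.1 CPM in WT mice 1, 3 and 4 at 0 h and at 235, 249 and 229.9 CPM at 24 h (log2 fold 2.56 ± 0.22 (SE), adjusted p = 1.15e-09). It had already reached 130, 163 and 103 CPM at 3 h, so every library at 3 h lay above every one at rest. Polr1a, the largest subunit, lay at 106, 145 and 134 CPM at 0 h and 125, 149 and 117 CPM at 3 h in the same mice (log2 fold 0.02, adjusted p = 0.95), and the groups overlapped. The largest 2 subunits of the enzyme thus differed in which times were called. Polr1e, another polymerase subunit, lay at 22.6, 26.7 and 24.5 CPM in WT mice 1, 3 and 4 at 0 h and at 72.5, 78.7 and 81.0 CPM at 24 h (log2 fold 1.65 ± 0.17 (SE), adjusted p = 2.17e-08). Tcof1, which encodes treacle, a nucleolar phosphoprotein that works with the polymerase, lay at 140.5, 149.7 and 180.1 CPM in WT mice 1, 3 and 4 at 0 h and at 553, 716 and 648 CPM at 24 h (log2 fold 2.03 ± 0.19 (SE), adjusted p = 4.65e-09). For both, no 24 h library came near the resting ones. Rrn3, the factor that makes the polymerase competent to initiate, and Ubtf, which binds the ribosomal DNA promoter, were called at 6 h and not at 3 h, with log2 changes of 1.07 and 1.57 at 24 h.

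Genes of the snoRNA particles had the highest group median at 24 h, a log2 fold of 2.76. The particles of the H/ACA class, which convert uridine to pseudouridine in ribosomal RNA, led it. Nhp2, one of their core proteins, lay at 25.4, 30.0 and 32.0 CPM in WT mice 1, 3 and 4 at 0 h and at 350.0, 382 and 364 CPM at 24 h (log2 fold 3.65 ± 0.22 (SE), adjusted p = 3.78e-12), the largest rise of the 50 genes. Gar1, a second core protein, lay at 21.5, 25.4 and 20.3 CPM in WT mice 1, 3 and 4 at 0 h and at 226, 236 and 230.3 CPM at 24 h (log2 fold 3.36 ± 0.24 (SE), adjusted p = 5.45e-11). Dkc1, the pseudouridine synthase, lay at 47.2, 52.8 and 47.3 CPM in WT mice 1, 3 and 4 at 0 h and at 442, 470.3 and 401 CPM at 24 h (log2 fold 3.16 ± 0.19 (SE), adjusted p = 3.99e-12). The 24 h libraries of all 3 genes lay far above every resting one. Nop10, the remaining core protein, changed less, with a log2 fold of 1.82 at 24 h, and it was not called at 3 h. Of the box C/D particles, which add methyl groups, the methyltransferase Fbl and the core protein Nop56 had log2 folds of 1.71 and 1.44 at 24 h, and their partner Nop58 had one of 2.70.

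All 14 small subunit genes were called higher at each of 3, 6 and 24 h in WT cells, with group medians of 0.64, 1.44 and 1.77. The largest changes at 24 h were in Noc4l, Bysl and Rrp12, factors of small subunit maturation and export. Noc4l lay at 51.4, 56.0 and 54.6 CPM in WT mice 1, 3 and 4 at 0 h and at 337, 361 and 334 CPM at 24 h (log2 fold 2.67 ± 0.15 (SE), adjusted p = 1.56e-12). Bysl, which encodes bystin, lay at 25.2, 34.1 and 36.8 CPM in WT mice 1, 3 and 4 at 0 h and at 195, 214 and 200.3 CPM at 24 h (log2 fold 2.66 ± 0.20 (SE), adjusted p = 1.39e-10). Rrp12 lay at 45.4, 56.1 and 59.5 CPM in WT mice 1, 3 and 4 at 0 h and at 222, 243 and 209 CPM at 24 h (log2 fold 2.07 ± 0.20 (SE), adjusted p = 7.83e-09). Noc4l was the fastest of the 3, with a log2 fold of 1.71 at 3 h against 1.32 and 0.80, although the difference between these was not tested. Ddx10, an RNA helicase, changed least of all 50 genes at 24 h.

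The 14 large subunit genes had group medians of 1.26, 1.79 and 2.12. Grwd1, a histone-binding protein that also serves in large subunit assembly, lay at 21.6, 24.8 and 26.1 CPM in WT mice 1, 3 and 4 at 0 h and at 216, 233 and 216 CPM at 24 h (log2 fold 3.20 ± 0.22 (SE), adjusted p = 3.71e-11). Rrp1b, a nucleolar protein of this pathway, lay at 34.5, 36.4 and 33.7 CPM in WT mice 1, 3 and 4 at 0 h and at 288, 311 and 296 CPM at 24 h (log2 fold 3.10 ± 0.22 (SE), adjusted p = 5.06e-11). Nop2, which methylates a cytosine of the large ribosomal RNA, lay at 50.7, 61.9 and 65.1 CPM in WT mice 1, 3 and 4 at 0 h and at 447, 518 and 486 CPM at 24 h (log2 fold 3.03 ± 0.21 (SE), adjusted p = 2.94e-11). All 3 were among the 7 largest rises of the 50 genes at 24 h. Bop1, Pes1 and Wdr12 form one complex needed for 28S RNA processing, yet only Pes1 was called at 3 h (log2 fold 0.71, adjusted p = 0.00247), and Bop1 and Wdr12 had log2 folds of 0.43 and 0.36 with adjusted p of 0.0559 and 0.132.

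The 5 nucleolar proteins of several steps had a median log2 fold of 2.59 at 24 h. Ncl encodes nucleolin, which binds precursor RNA, and it lay at 1102, 982 and 1077 CPM in WT mice 1, 3 and 4 at 0 h and at 5930, 7204 and 6484 CPM at 24 h (log2 fold 2.63 ± 0.16 (SE), adjusted p = 4.92e-12), with 4 of the 5 genes called at 3 h. Mybbp1a, a nucleolar protein that also binds the MYB transcription factor, lay at 188, 201 and 233 CPM in WT mice 1, 3 and 4 at 0 h and at 1380, 1655 and 1511 CPM at 24 h (log2 fold 2.87 ± 0.19 (SE), adjusted p = 3.08e-11). Npm1, the chaperone nucleophosmin, lay at 273, 276 and 245 CPM in WT mice 1, 3 and 4 at 0 h and at 1515, 1683 and 1580 CPM at 24 h (log2 fold 2.59 ± 0.18 (SE), adjusted p = 4.17e-11), and it was the member of this group that was not called at 3 h. Per kilobase of annotated transcript, Npm1 and Ncl were the most abundant of the 50 genes at 24 h in WT cells, at 975 and 797 CPM per kb, against 10.5 for Wdr74. The length of Ncl rests on 1 long annotated transcript of 8202 bases, so its level per length is uncertain.

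The rise was not one curve. Between 3 and 6 h 42 of 50 genes were called higher in WT cells, where 14.2% of all tested genes were, and between 6 and 24 h 29 were called higher and 1 lower, against 29.6% and 28% of all tested genes. Group means were highest at 24 h for 47 genes, and at 6 h for Nle1, Noc3l and Ddx10. Ddx10 lay at 74.0, 78.5 and 79.2 CPM at 0 h, 149, 153 and 141 CPM at 6 h and 118, 129.5 and 114 CPM at 24 h in WT mice 1, 3 and 4. It fell from 6 to 24 h in every WT mouse (log2 fold -0.29 ± 0.12, adjusted p = 0.0346), and the 2 groups did not overlap. That call was lost in 8 of 20 alternatives, the length and GC correction and the removal of any 1 WT mouse among them, with adjusted p up to 0.161. In Aim2-/- cells the corresponding change was -0.05 (adjusted p = 0.739). Heatr1 and Utp20, 2 large proteins of the small subunit precursor, had WT changes of 0.06 and 0.04 from 6 to 24 h, with adjusted p of 0.782 and 0.87. In Aim2-/- cells 19 genes were called higher from 3 to 6 h (13.4% of all tested genes were). With mouse as a block 33 were, against 20% of all tested genes, with only the libraries compared 5 were, against 3.46%, and without Aim2-/- mouse 2 6 were, against 7.36%. From 6 to 24 h 40 were called higher in Aim2-/- cells (27.4% of all tested genes were). With marker scores in the model, described with the genotype comparison, 8 genes were called higher and 2 lower from 6 to 24 h in WT cells, against 24.4% and 22.3% of all tested genes, and the median went from 0.44 to 0.15.

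Among 81 other genes of ribosome biogenesis, all of them tested, 54, 70 and 72 were called higher at 3, 6 and 24 h in WT cells and 1 was called lower at each time. The median log2 folds were 0.44, 0.96 and 1.31. Of all tested genes 16.2%, 26.4% and 36.6% were called higher in WT cells at these times, and 16.4%, 24.8% and 34.8% lower. In Aim2-/- cells 48, 64 and 70 of the 81 were called higher, and 1, 2 and 1 lower. Of all tested genes 16.1%, 28.5% and 36.8% were higher there, and 14.6%, 22.7% and 33.5% lower. Between the genotypes 27 of the 81 were called lower in Aim2-/- cells at 6 h, against 7.01% of all tested genes. None was called at the other times. These 27 calls come from the same 6 h libraries as the genotype calls described below, so they are no separate support. Without the 6 h library of Aim2-/- mouse 1, calls among all tested genes went from 2421 to 128. The largest rises of the 81 genes at 24 h in WT cells were in Rpf2, Mrto4 and Rrp15, all of large subunit assembly. Their log2 folds were 3.53, 3.07 and 2.88. The gene that fell was Riok1, a kinase of late small subunit maturation, with a mean of 126 ± 13.5 CPM at 0 h and 79.9 ± 3.89 CPM at 24 h (SD, n = 3, log2 fold -0.66, adjusted p = 3.05e-07). Myc, a transcription factor known to act on genes of ribosome biogenesis, lay at 80.0, 76.5 and 77.0 CPM at 0 h and 446, 569 and 401 CPM at 3 h in WT mice 1, 3 and 4, so all 3 h libraries lay above the resting ones.

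**Figure D3:**
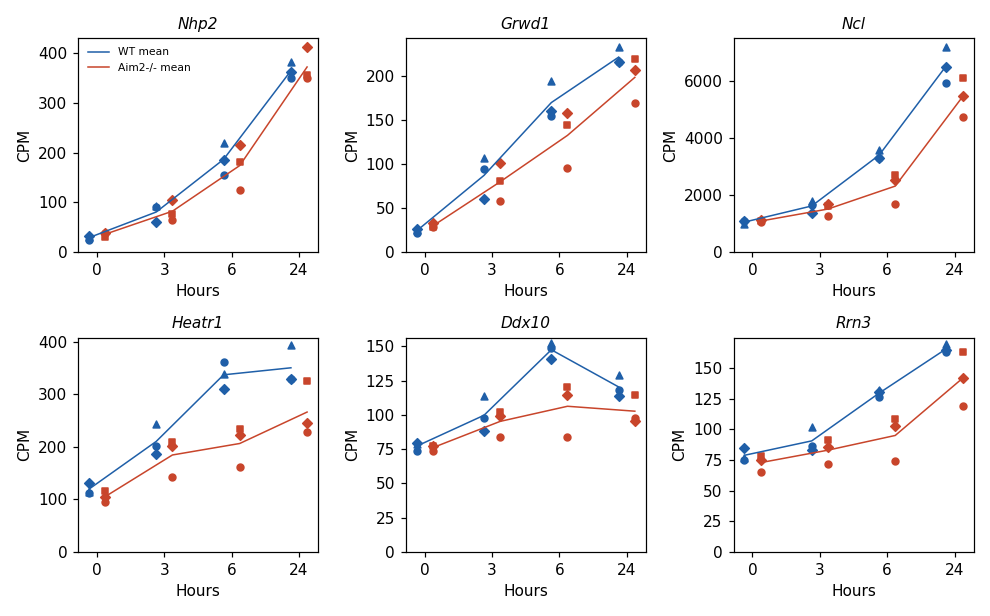
CPM (y axis, from 0) of Nhp2, Grwd1, Ncl, Heatr1, Ddx10 and Rrn3 in each library (points, shapes mark mice) against hours after stimulation (evenly spaced), with lines through the mean of 3 mice in WT (blue) and Aim2-/- (red). The mean of Ddx10 was highest at 6 h in both genotypes, although Aim2-/- mouse 1 lay higher at 24 h (98.0 CPM) than at 6 h (83.8 CPM), and the WT and Aim2-/- points of Ncl, Heatr1, Ddx10 and Rrn3 did not overlap at 6 h.

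Genotype differences were called at 6 h and at no other time. At 6 h 20 of the 50 genes were called lower in Aim2-/- cells and none higher, where 7.01% of all tested genes were called lower and 8.78% higher. The median log2 difference over the 50 genes was -0.41, against 0.05 over all tested genes. The calls fell on 9 of 14 small subunit genes, 3 of 14 large subunit genes, 3 of 7 polymerase genes, 2 of 10 snoRNA particle genes and 3 of 5 genes of several steps. At 0, 3 and 24 h edgeR called none of the 50, where 5.23%, 0.294% and 0.666% of all tested genes were called in either direction. The medians over the 50 genes were 0.007, -0.11 and -0.23, against -0.006, 0.002 and 0.006 over all tested genes. DESeq2 and limma-voom each called 1 gene at 0 h and none at 3 and 24 h. Of all tested genes DESeq2 called 10.2%, 2% and 5.14% at these times, and limma-voom 5.23%, 0.411% and 0.0326%.

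Heatr1, a scaffold protein of the small subunit precursor, lay at 362, 339 and 309.7 CPM in WT mice 1, 3 and 4 and 161, 234 and 223 CPM in Aim2-/- mice 1, 2 and 4 at 6 h (log2 fold -0.71 ± 0.16 (SE), adjusted p = 0.012). Utp20, of the same precursor, lay at 245, 249 and 216 CPM in WT mice 1, 3 and 4 and 102, 162 and 152 CPM in Aim2-/- mice 1, 2 and 4 (log2 fold -0.77 ± 0.19 (SE), adjusted p = 0.0146). Rrp12 lay at 191, 188 and 163 CPM in WT mice 1, 3 and 4 and 81.5, 140.3 and 120.4 CPM in Aim2-/- mice 1, 2 and 4 (log2 fold -0.66 ± 0.19 (SE), adjusted p = 0.0292). In each case the highest Aim2-/- library lay below the lowest WT library, and Aim2-/- mouse 1 was the lowest of all 6. Ddx10 lay at 149, 153 and 141 CPM in WT mice 1, 3 and 4 and 83.8, 121 and 115 CPM in Aim2-/- mice 1, 2 and 4 (log2 fold -0.47 ± 0.12 (SE), adjusted p = 0.0152), again without overlap. Of the box C/D proteins, Nop56 lay at 298, 324 and 301 CPM in WT mice 1, 3 and 4 and 151, 243 and 204 CPM in Aim2-/- mice 1, 2 and 4 (log2 fold -0.63 ± 0.15 (SE), adjusted p = 0.0135). Fbl lay at 29.0, 34.6 and 26.3 CPM in WT mice 1, 3 and 4 and 15.8, 23.2 and 20.02 CPM in Aim2-/- mice 1, 2 and 4 (log2 fold -0.61 ± 0.16 (SE), adjusted p = 0.0188). The groups did not overlap for either gene. Dkc1, of the H/ACA class, did not overlap either, at 253, 269 and 239.6 CPM in WT mice 1, 3 and 4 and 134, 221 and 186 CPM in Aim2-/- mice 1, 2 and 4, and was not called (log2 fold -0.49 ± 0.17 (SE), adjusted p = 0.0535). The classes were not tested against each other.

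Ncl lay at 3303, 3583 and 3312 CPM in WT mice 1, 3 and 4 and 1705, 2720 and 2522 CPM in Aim2-/- mice 1, 2 and 4 (log2 fold -0.55 ± 0.15 (SE), adjusted p = 0.0216). Ddx21, a helicase that links polymerase I transcription with RNA processing, lay at 1058, 1077 and 985 CPM in WT mice 1, 3 and 4 and 452, 808 and 702 CPM in Aim2-/- mice 1, 2 and 4 (log2 fold -0.67 ± 0.19 (SE), adjusted p = 0.026). Rrn3 lay at 126, 132 and 130.3 CPM in WT mice 1, 3 and 4 and 74.3, 108 and 102 CPM in Aim2-/- mice 1, 2 and 4 (log2 fold -0.45 ± 0.13 (SE), adjusted p = 0.028). All 3 were lower in every Aim2-/- library than in any WT library. Noc3l, of the large subunit, lay at 117, 124 and 111 CPM in WT mice 1, 3 and 4 and 61.2, 86.8 and 88.5 CPM in Aim2-/- mice 1, 2 and 4 (log2 fold -0.58 ± 0.17 (SE), adjusted p = 0.028), also without overlap. The 10 called genes with single-library values at 6 h were chosen by their low adjusted p, so their lack of overlap is no separate support. The share of all tested genes without overlap was not computed. The other 10 called genes, with log2 differences from -0.40 to -0.66, were Utp4, Mybbp1a, Tcof1, Rrp1b, Wdr75, Ltv1, Polr1a, Nop14, Utp14a and Noc2l. Myc also lay lower, at 628, 824 and 719.6 CPM in WT mice 1, 3 and 4 and 356, 538 and 545 CPM in Aim2-/- mice 1, 2 and 4 (log2 fold -0.59 ± 0.19 (SE), adjusted p = 0.0405).

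**Figure D4:**
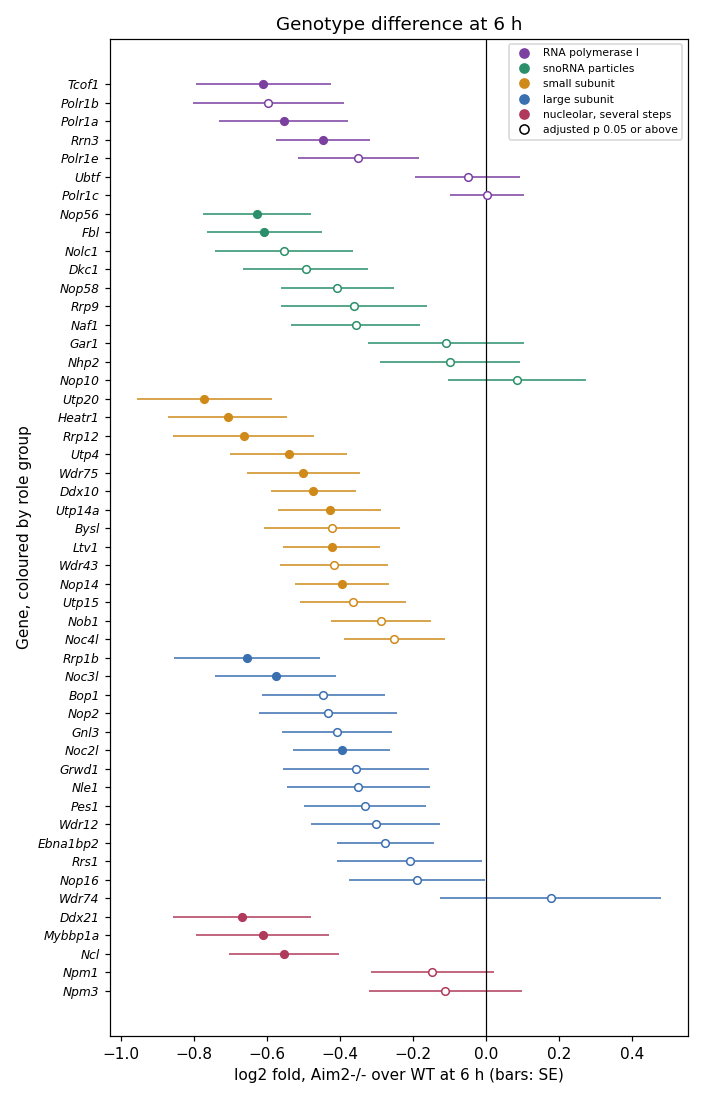
Log2 fold of Aim2-/- over WT cells at 6 h (x axis, points, bars are SE) for each of the 50 genes, grouped by role and coloured. Filled points were called, and 47 of 50 points lie left of 0, with Utp20 lowest at -0.77 and Wdr74 highest at 0.18.

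Other genes of the pathway lay near 0 in the genotype comparison at 6 h. Polr1c, a subunit shared with RNA polymerase III, lay at 83.6, 97.0 and 85.9 CPM in WT mice 1, 3 and 4 and 83.0, 90.6 and 93.3 CPM in Aim2-/- mice 1, 2 and 4 (log2 fold 0.00 ± 0.10 (SE), adjusted p = 0.991). Nhp2, Gar1, Nop10, Npm1, Npm3 and Ubtf had differences between -0.15 and 0.08, and none of these was called. The size of the difference varied with transcript length. Across the 50 genes Spearman's rho between log2 difference and annotated length was -0.614 at 6 h and -0.72 at 24 h, and across 15318 genes with a length it was -0.208 and -0.236. These genes share libraries and are not independent replicates, so no p is given. Each length is that of 1 annotated transcript, 8202 bases for Ncl and 10012 for Wdr12, which may not be the one the cells use. The 14 genes with transcripts up to 1905 bases, 19 genes up to 3537 bases and 17 longer genes had medians of -0.17, -0.41 and -0.58 at 6 h. The medians over all tested genes in the same length classes were 0.19, 0.07 and -0.09. After each library was corrected for its trend with length and GC content, a check added after seeing the data, 24 of the 50 genes were called lower, where 9.62% of all tested genes were called lower and 3.84% higher, with a median of -0.55 against -0.10 over all tested genes.

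**Figure D5:**
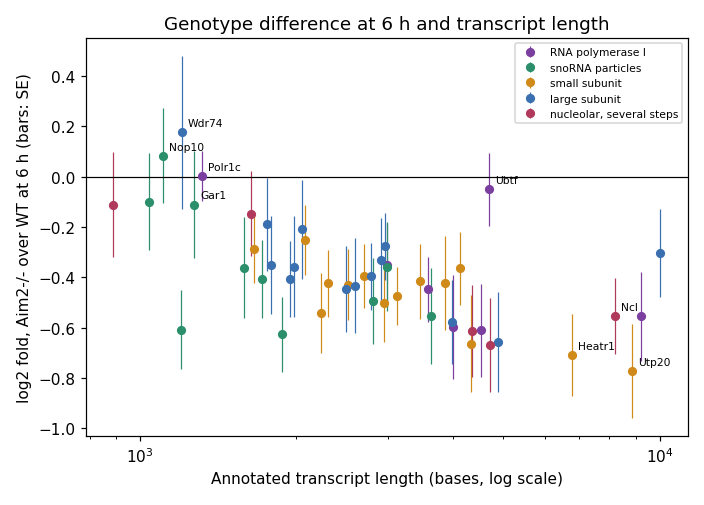
Log2 fold of Aim2-/- over WT cells at 6 h (y axis, bars are SE) against annotated transcript length in bases (x axis, log scale) for the 50 genes, coloured by role. Genes of short transcripts such as Nop10 and Gar1 lie near 0 and long ones such as Heatr1 and Utp20 lie lowest. By annotated length, exceptions are Ubtf (near 0), Wdr12 (10012 bases, -0.30) and Fbl (1197 bases, -0.61).

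The count of calls at 6 h depended on single mice. Without Aim2-/- mouse 1 at 6 h 0 of 50 genes were called, with a median of -0.25, and calls among all tested genes went from 2421 to 128 (0.223% called lower). With all libraries of that mouse removed 2 were called, against 0.682% of all tested genes lower. Without WT mouse 1, whose Aim2 level went against its label, 6 were called lower, namely Ncl, Fbl, Nop56, Utp20, Ddx10 and Heatr1, with a median of -0.45, where 3.62% of all tested genes were called lower and 7.83% higher. Without all libraries of WT mouse 3 or WT mouse 4 none was called, where 179 and 95 of all tested genes were called in either direction. Without those of Aim2-/- mouse 4 2 were called, against 0.923% of all tested genes lower. The medians stayed between -0.51 and -0.25 when a library or mouse was left out. Aim2-/- mouse 1 also had the smallest median rise of the 50 genes at 6 h, 0.98 on the log2 scale against 1.46 and 1.48 in Aim2-/- mice 2 and 4 and 1.66, 1.74 and 1.62 in WT mice 1, 3 and 4. At 3 h, WT mouse 4 was near it, with 0.58 against 0.53.

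Markers of some other cells differed between the genotypes in the same libraries. At 6 h the summed level of 8 B cell markers was 4.33 to 7.89 CPM in WT and 12.2 to 41.3 CPM in Aim2-/- libraries, with 6 of 6 tested markers higher on average and 2 called. The summed level of 8 myeloid markers was 22.6 to 50.9 and 85.5 to 283 CPM (8 of 8 higher, 1 called), and that of 4 basophil markers was 8.96 to 16.4 and 69.8 to 143 CPM (4 of 4 called higher). That of 6 erythroid markers was 8.08 to 64.9 and 23.3 to 498 CPM (6 of 6 higher, none called). Aim2-/- mouse 1 had the highest sum of each of these lists at 6 h. At 6 h 1 B cell marker was at or under 3 counts in WT libraries and no other marker of these lists was. The 2 CD8 T cell markers summed to 7.74 to 8.96 CPM in WT and 8.085 to 13.4 CPM in Aim2-/- libraries at 6 h. The 3 NK cell markers summed to 5.85 to 10.4 and 7.395 to 12.4 CPM. Both ranges overlapped and none of these markers was called. When the model also held a score for each of the B cell, myeloid and erythroid lists, 0 of 50 genes were called at 6 h, with a median of -0.25. Calls among all tested genes went from 2421 to 235 (0.633% lower and 0.9% higher). The B cell and myeloid sums did not overlap between the genotypes at 6 h, so scores and genotype cannot be fully told apart in that model. The basophil list was not among the scores. At 0 h the same scores moved the median of the 50 genes from 0.007 to 0.23, with none called, where 0.77% of all tested genes were. For the difference in response at 6 h, described below, 10 genes were called smaller with these scores, against 1.85% of all tested genes. Its median was -0.51, against -0.41 without scores. The part of other cells in these differences was otherwise not tested.

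At 0 h Ubtf stood out among the 50 genes. It lay at 188, 136 and 152 CPM in WT mice 1, 3 and 4 and at 237, 219 and 209.5 CPM in Aim2-/- mice 1, 2 and 4 (log2 fold 0.48 ± 0.14 (SE), adjusted p = 0.0542), so the groups did not overlap and the difference missed the threshold. WT mouse 1 was the highest of the WT mice. Without that mouse the log2 fold was 0.62 (adjusted p = 0.00269), and over all alternatives the adjusted p ranged from 0.00269 to 0.299. Wdr12 lay the other way, at 37.7, 40.9 and 34.3 and 21.6, 29.1 and 33.3 CPM (log2 fold -0.43, adjusted p = 0.159).

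Whether the response itself differed between genotypes was tested with edgeR, DESeq2 and limma-voom. None of the 50 genes was called at 3, 6 or 24 h. Of all tested genes edgeR called 0%, 0.0261% and 0%, DESeq2 0%, 1.98% and 1.21%, and limma-voom 0%, 0.0131% and 0.0131%. At 6 h 48 of 50 lay in the direction of a smaller response in Aim2-/- cells. The median was -0.41, against 0.03 over all tested genes. Without WT mouse 1, 3 or 4 the medians over the 50 genes were -0.42, -0.37 and -0.47. Without Aim2-/- mouse 1, 2 or 4 they were -0.26, -0.52 and -0.50. Over all tested genes the medians of these fits lay between 0.02 and 0.03. By the numbers in the labels each mouse gave all 4 libraries. The edgeR test with mouse as a block called 14 genes at 6 h, all with a smaller response in Aim2-/- cells. Of all tested genes 2.38% were called with a smaller and 2.3% with a larger value. At 24 h it called 1, Ubtf, where 1.27% and 1.5% of all tested genes were. The 14 were Ncl, Nop56, Nolc1, Noc2l, Bop1, Mybbp1a, Ddx21, Ddx10, Rrp1b, Rrp12, Bysl, Heatr1, Ubtf and Tcof1. The blocked fit held WT mouse 1 and was not run without it. Rrp1b had the largest such difference, -0.91 ± 0.20 (SE, adjusted p = 0.0156), and its adjusted p over all alternatives ranged from 0.0126 to 0.736. In this fit the lower 6 h response of Ubtf includes its higher level at rest.

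Promoter sequences were looked up because MYC and its partner MAX bind the letters CACGTG (an E-box). RefSeq windows of build GRCm38.p6, from 250 bases before to 50 after a start, were at hand for 43 of the 50 genes, in 52 windows. Npm1, Fbl, Naf1, Bop1, Rrp12, Rrs1 and Tcof1 were not matched. The end of 43 of the 52 windows was found near the start of an annotated transcript. CACGTG, which reads the same on both strands, was found in 10 of 43 genes (23.3%), and in 11.6% of 10598 tested genes with a window. It was found after the start in 8 of 43 genes (18.6%) and in 1.96% of those tested genes, and before the start in 2 of 43 (4.65%) and in 10.1%. The letters CCGGAAG, the core of sites for ETS factors, were found on either strand in 37.2% of the genes and 19.7% of tested genes, and CACGCG in 34.9% and 19.3%. No site is counted for both CACGTG and CACGCG, since their letters differ. The genes with CACGTG had a median log2 fold of 1.83 at 24 h in WT cells (n = 10), and those without had 2.00 (n = 33). These matches describe letters and no binding was measured.

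The 2 genes with E-boxes before the start were Nop2, 60 bases before it, and Rrn3, 215 and 48 bases before it. Their 250 bases before the start are shown, chr6:125131633-125131882 and chr16:13780449-13780698, both plus strand, with the E-boxes in capitals, because their E-boxes lie there. Both genes were called higher at 6 h and 24 h in WT cells, as were all 50 genes.
Nop2: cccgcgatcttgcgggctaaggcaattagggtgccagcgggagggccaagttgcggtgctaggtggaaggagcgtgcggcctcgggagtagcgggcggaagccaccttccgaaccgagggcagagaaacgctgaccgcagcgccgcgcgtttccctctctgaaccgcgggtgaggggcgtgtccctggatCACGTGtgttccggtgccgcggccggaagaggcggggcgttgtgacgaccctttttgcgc
Rrn3: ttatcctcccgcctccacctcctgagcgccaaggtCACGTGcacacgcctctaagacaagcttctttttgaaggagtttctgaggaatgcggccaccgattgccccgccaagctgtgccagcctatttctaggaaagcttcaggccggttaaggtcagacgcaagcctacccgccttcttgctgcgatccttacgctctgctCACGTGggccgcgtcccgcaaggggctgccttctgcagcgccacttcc

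The other 8 genes carry the E-box in the first transcribed bases, from 3 (Pes1) to 41 (Mybbp1a) counted from 1 at the start. The sites with flanking bases, E-box in capitals, are shown because most of the E-boxes found lay there, and their places in GRCm38.p6 are Nle1 chr11:82908357-82908382 (minus strand), Pes1 chr11:3963967-3963992 (plus strand), Wdr43 chr17:71616222-71616247 (plus strand), Utp4 chr8:106893645-106893670 (plus strand), Utp20 chr10:88826765-88826787 (minus strand), Mybbp1a chr11:72441357-72441376 (plus strand), Ltv1 chr10:13193094-13193119 (minus strand), Grwd1 chr7:45830740-45830765 (minus strand).
Nle1: ggttctcctcCACGTGgggacgcagg
Pes1: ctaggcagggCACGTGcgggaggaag
Wdr43: cccgggcgaaCACGTGgctgccgcgg
Utp4: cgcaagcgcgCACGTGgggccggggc
Utp20: gcactaactaCACGTGaggaaaa
Mybbp1a: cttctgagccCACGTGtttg
Ltv1: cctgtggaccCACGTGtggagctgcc
Grwd1: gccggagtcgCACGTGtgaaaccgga
These 8 genes had log2 folds at 24 h in WT cells from 1.65 (Pes1) to 3.20 (Grwd1), inside the range of 0.64 to 3.65 of the 33 genes without the letters.

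Another feature that the choice of genes did not use is that 6 of the 50 genes (12%) hold annotated snoRNA genes on the same strand, against 225 of 12654 tested coding genes (1.78%). These were Ncl with 3, Nop56 with 5, Nop58 with 4, Dkc1 with 1, Gnl3 with 3 and Wdr43 with 3. The counts cannot say whether the snoRNAs were made, as the libraries select messenger RNA. In 22 of the 50 genes another gene overlaps on the opposite strand, and whether counting kept the strands apart is not stated, so their levels are less certain.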

How the data were processed

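Splenic CD4+ T cells were enriched by removing other cells, activated on anti-CD3 with anti-CD28, and sequenced as stranded messenger RNA. The authors aligned reads with STAR to GRCm38 (DESeq2 and edgeR are also named in the processing notes, with no versions) and deposited raw counts per gene, without normalization. No other per-sample column was used. Gene positions, lengths and GC content came from GENCODE M21, which matched 54409 of 54446 identifiers.

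From the counts, edgeR 4.0.16 (R 4.3.3) fitted all 24 libraries with 1 mean for each of 8 groups, TMM factors and genes kept by filterByExpr at a minimum count of 10, and two-sided quasi-likelihood F tests were adjusted after Benjamini and Hochberg over the 15325 genes tested. CPM uses TMM-scaled sizes, and log2 CPM a prior count of 2. The biological coefficient of variation was 18.6%. There were 17 comparisons. The scripts were tested on simulated data.

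Members and lists were chosen with earlier results of these data known. Values of single libraries are given for the 3 largest called changes at 24 h in WT in each role group, for the 10 members with the lowest adjusted p in genotype and interaction comparisons, and for Aim2 and Myc, and those of Polr1a, Polr1c, Ubtf and Wdr12 were chosen after their values were seen. The labels number the libraries of each genotype, and a number was taken as the same mouse at all times. Libraries of the same number deviated together (r from 0.139 to 0.567 over 36 pairs, against -0.432 to 0.0742 over 72 pairs of different numbers). Over the 50 genes alone the range was wider, -0.644 to 0.857 over the same 36 pairs. Blocked fits are given where a result changes with them. Alternatives were other size factors, DESeq2 1.42.0, limma-voom 3.58.1, other filters, only the libraries compared, marker scores, blocks, each library or mouse left out and, added after seeing the data, a length and GC correction.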

Additional observations from a re-analysis of the deposited data

How the results depend on the processing

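With 3 mice a group every spread rests on 3 animals, and depth did not limit the 50 genes. The called rises at 6 and 24 h in WT cells and at 24 h in Aim2-/- cells kept their direction in every alternative tried. The 2 reversals were of Polr1c in Aim2-/- cells at 6 h, to -0.0489 with the length and GC correction and to -0.0510 with mouse as a replicate block as well. Mouse as a block changed no other call count by over 1.5 times than those given here. The causes were not tested.

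For the genotype at 6 h (20 genes) no filter gave 36, where 5.13% of all tested genes were lower. Marker scores gave 0 (0.633% were lower) and only the libraries compared 5 (3.76%). Leaving out a library or mouse gave 0 to 25, the highest without the 6 h library of Aim2-/- mouse 2 (9.47%). At 0 h (0 genes) DESeq2 gave 1, limma-voom 1 and no filter 2, where 10.2%, 5.23% and 4.78% of all tested genes were called. Mouse number as a replicate block gave 2 (23.6% were called), although same-numbered mice of the genotypes are different animals. Leaving out gave 0 to 1, with 1 without the 0 h library of WT mouse 1 (4.5% were called) and without that mouse (5.77%). At 3 h (0) that block gave 2, where 15.2% of all tested genes were called. Leaving out gave 0 to 1 (1.19% to 7.31% were called where it gave 1). At 24 h (0) no filter gave 1 (0.679% of all tested genes were lower) and that block 11 (10.1% were lower). Leaving out gave 0 to 7, the highest without Aim2-/- mouse 2 (9.28% were lower). For the response at 6 h (0) no filter gave 2, marker scores 10, mouse as a replicate block 14 and the block with length and GC correction 26. All were smaller in Aim2-/- cells, where 0.354%, 1.85%, 2.38% and 3.52% of all tested genes were. At 24 h (0) the block gave 1, with length and GC correction 2, where 1.27% and 1.74% of all tested genes were smaller. Leaving out gave 0 to 1, with 1 without WT mouse 1 (0.0703% were smaller).

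For stimulation at 3 h in Aim2-/- cells (42, where 16.1% of all tested genes were higher), leaving out gave 26 to 44, the lowest without mouse 4. Whether calls over all tested genes fell alike in those fits is not shown here. From 3 to 6 h, leaving out gave 20 to 43 in WT (42), the lowest without mouse 4 (5.51% of all tested genes were higher). In Aim2-/- cells (19), only the libraries compared gave 5 (3.46% of all tested genes were higher) and the block 33 (20%). The block with length and GC correction gave 33 (32 higher, and Nop56 lower, against 15.8% and 16.6%). Leaving out gave 6 (7.36% higher, without mouse 2) to 33 (12.8%, without the 6 h library of mouse 1). From 6 to 24 h in WT (30), marker scores gave 10 (8 higher), where 46.7% of all tested genes were called. Leaving out gave 18 to 29 (45.3% to 53% were called).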
